A study of Zea mays with 2 samples.

Results

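Internal KN1 summits in long maize genes are the subject here: ChIP-seq peaks whose highest point lay well inside an annotated gene of more than 10 kb. Peaks were taken from chromosomes 1 to 10 if they were listed with a single gene that carries a nuclear identifier. The summit had to lie more than 300 bp inside the gene start and more than 500 bp inside the gene end, by strand. This left 313 peaks in 253 genes, out of 21437 listed peaks. The rule sets no limit on the enrichment or width of these peaks. It does drop peaks listed with several genes. The 33 dropped peaks with internal summits in long genes had a median fold over input of 10.2, against 7.71 for the 313.

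The tested sample was chromatin recovered with maize KN1 carrying a biotin ligase recognition peptide (BLRP) tag, overexpressed from a transfected plasmid in leaf protoplasts of the inbred line B73. The sample set against it was input chromatin, labelled as coming from the same kind of B73 protoplasts. There was 1 ChIP library and 1 input library, so no value has a replicate error, and all intervals and tests cover only the counting of peaks from these libraries. Peaks of the same gene share their source and are not independent. The ChIP library held an estimated 5.66 M reads after duplicate removal.

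KN1 (KNOTTED1) is a KNOX-class homeodomain protein, a transcription factor that maintains the shoot meristem of maize and is normally absent from leaf primordia. The protoplasts therefore show where overexpressed KN1 was recovered in leaf cells, which is a different setting from the meristem. Binding of KN1 within a gene body has a known precedent in maize, where it contacts an intron of the gibberellin catabolism gene ga2ox1. Long maize genes commonly owe their length to large introns that hold transposable elements. Coordinates are those of the B73 assembly AGPv4. Exons and introns were not analysed here, so the summits are placed only by distance from gene start and gene end. None of the 253 gene identifiers matched the RefSeq gene table (0 matched), so gene functions are not given and few identifiers are printed.

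Enrichment at the internal summits covered a wide range. The fold of ChIP over input, as the authors' peak caller gave it for each peak, had a median of 7.71 (quartiles 5.61 and 15.8), with a lowest value of 3.51 and a highest of 81.7. The ChIP pileup, the number of overlapping extended reads at the summit, had a median of 22 and ran from 9 to 232. The weakest of these calls therefore rest on few reads. At 284 of the 313 summits the input was at a genome-wide floor, the lowest level the peak caller allows. There the fold follows from the pileup alone, so fold and pileup are not separate measures. A fold of at least 10 was reached by 129 of the 313 internal summits (41.2%, exact 95% interval 35.7 to 46.9%). Among all 20647 peaks with a single nuclear gene, the background share at this fold was 47.2%. The internal peaks had a median width of 423 bp, with quartiles of 305 and 599 bp and a maximum of 2232 bp. At the lower end, 18 of them had the shortest width in the table, 229 bp. So did 138 of 2530 internal peaks in genes up to 10 kb and 825 of all 20647 peaks.

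The strongest internal peak lay on chromosome 4 at 60155900 to 60156751, in Zm00001d050020 (60146877 to 60161157, plus strand). Its summit was 9476 bp from the start and 4804 bp from the end of the 14280-bp gene. The fold was 81.7, the pileup 232 reads and the −log10 q-value 385. The same gene carried a start summit with a fold of 17.2, so the internal summit was the stronger.

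Next in order was a peak on chromosome 10 at 145884038 to 145885648, in Zm00001d026439 (145882413 to 145897009, plus strand), with a fold of 66.3 at 2088 bp from the start. The third lay on chromosome 2 at 5797582 to 5799691, with a fold of 60.6 at 2167 bp from the start of a gene on the minus strand (5787176 to 5800531). The fourth, on chromosome 7 at 151526849 to 151528162, had a fold of 57.8 at 2005 bp from the start of its gene (151517790 to 151529322, minus strand). These 3 peaks had their summits close to 2 kb inside the gene and were broad, at 1611, 2110 and 1314 bp.

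The other 6 of the 10 strongest had folds of 41.0 to 53.3. On chromosome 2 they comprised a peak at 36856724 to 36857695 with a fold of 53.3, 6078 bp from the start, and one at 220594290 to 220595043 with a fold of 41.0, 24408 bp into a 32340-bp gene. On chromosome 1 there were 3, at 15970672 to 15971433 (fold 52.2), 231865492 to 231867723 (fold 44.9) and 257763106 to 257764213 (fold 44.5). The remaining peak was on chromosome 7 at 159035859 to 159036910, with a fold of 45.2 at 1304 bp from the start. All 10 lay in different genes and had input at the genome-wide floor, the lowest input level the peak caller allows. Their summits lay between 1304 and 24408 bp from the start and at least 3396 bp from the end.

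At the other extreme, 3 internal peaks shared the lowest fold, 3.51, with 9 reads each and a −log10 q-value of 2.38. They lay on chromosome 2 (211817982 to 211818281, 535 bp from the gene end), chromosome 3 (134445305 to 134445753, 512 bp from the start) and chromosome 6 (89561634 to 89561862, 448 bp from the start). All 3 were near a gene boundary.

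The internal summits of long genes were set against internal summits of genes up to 10 kb, chosen with the same margins, to ask whether gene length goes with a different strength. The share above the median fold of all 20647 peaks was 41.9% in genes over 10 kb (131 of 313, 95% interval 36.3 to 47.5%) and 40.5% in shorter genes (1024 of 2530, 38.6 to 42.4%). The background share above this median, 9.47, was 48.8%, since some peaks have exactly the median fold. The difference did not pass a two-sided Fisher's exact test (odds ratio 1.06, 95% interval 0.827 to 1.35, p = 0.669, Benjamini-Hochberg adjusted p = 0.857 over 8 tests). Against start summits of the same class of genes, defined as 500 bp before to 300 bp inside the start, the odds ratio was 1.03 (0.775 to 1.38; Fisher's exact test, adjusted p = 0.857). There, 41.9% of internal and 41.1% of start summits (246 of 599) exceeded the median. Medians were 7.71 for internal summits of long genes, 8.06 for internal summits of shorter genes and 8.06 for start summits of long genes.

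**Figure D1:**
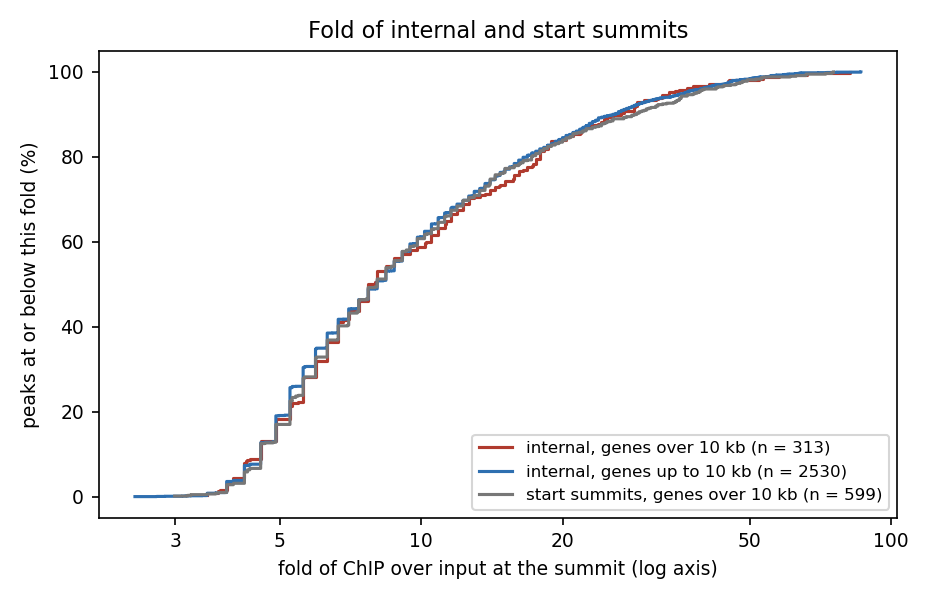
Cumulative share of peaks (vertical axis, percent) by fold of ChIP over input at the summit (log axis), for 313 internal summits in genes over 10 kb, 2530 internal summits in genes up to 10 kb and 599 start summits of genes over 10 kb. The 3 curves run close together, with medians of 7.71, 8.06 and 8.06.

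Peak width was compared in the same way. Of the internal peaks in long genes 44.7% (140 of 313) were wider than the median of 454 bp, compared with 47.0% in shorter genes (1190 of 2530) and a background of 49.9%. The odds ratio was 0.911 (95% interval 0.714 to 1.16) and did not pass Fisher's exact test (adjusted p = 0.857). Input above the genome-wide floor was found at 29 of 313 internal summits of long genes (9.27%, 6.29 to 13.0%) and at 148 of 2530 in shorter genes (5.85%, 4.97 to 6.84%), with a background of 7.95%. This odds ratio of 1.64 (1.04 to 2.51) had an unadjusted p of 0.0248 and did not pass after adjustment (Fisher's exact test, adjusted p = 0.0993). The raised levels had a median of 2.01 against a floor of 1.85, and input did not exceed 3.02 at any of the 313 summits. At start summits of genes over 10 kb, input was above the floor at 69 of 599 (11.5%), which was not tested against the internal summits.

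Internal summits were densest next to the excluded margins. By point estimate, the density was lower with each step away from the gene start, but not from the gene end. Between 300 and 500 bp from the gene start there were 17 summits, or 7.86 per 100 kb of eligible sequence in the 1081 listed genes over 10 kb (exact Poisson 95% interval 4.58 to 12.6). From 500 to 1000 bp the density was 7.22 (5.13 to 9.86). It was 2.78 at 1 to 2 kb (1.87 to 3.96) and 2.22 at 2 to 3 kb (1.42 to 3.30). At 3 to 5 kb the density was 1.76 (1.24 to 2.41), at 5 to 10 kb 1.51 (1.20 to 1.87). Beyond 10 kb it was 1.09 (0.867 to 1.35). Intervals of neighbouring start bins overlap, except between 500 to 1000 bp and 1 to 2 kb. At the gene end, 27 summits lay 500 to 1000 bp inside, a density of 4.995 (3.29 to 7.27), and the density at 1 to 2 kb from the end was 1.39 (0.777 to 2.29). Farther from the end it was 1.94 at 2 to 3 kb (1.20 to 2.97), 1.85 at 3 to 5 kb (1.32 to 2.52), 1.798 at 5 to 10 kb (1.46 to 2.19) and 1.43 beyond 10 kb (1.17 to 1.71), and all 4 of these intervals overlap that of the 1 to 2 kb bin. All densities are over genes with at least 1 listed peak, since genes without a peak are not in the table. Bins beyond 10 kb weigh longer genes more, and density was lower in longer genes, so distance and length were not separated there.

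**Figure D2:**
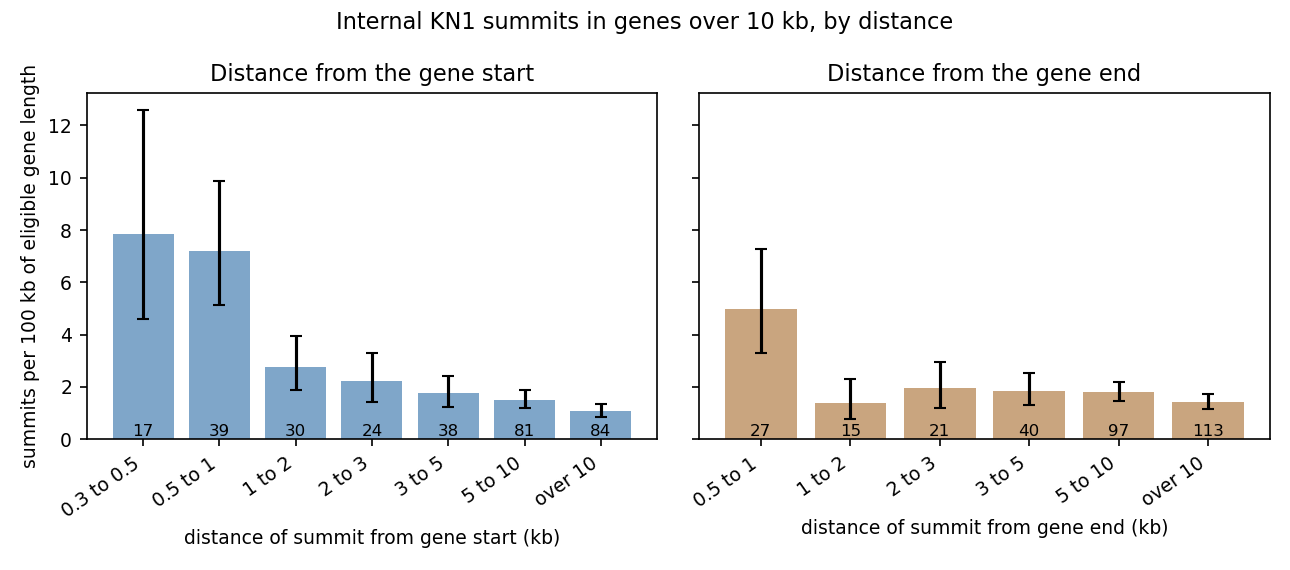
Internal KN1 summits per 100 kb of eligible gene length (vertical axis) by distance in kb from the gene start (left) and from the gene end (right), over 1081 listed genes over 10 kb. Bars show densities with exact Poisson 95% intervals and the digits in them the number of summits, with the highest densities at 0.3 to 1 kb from the start and at 0.5 to 1 kb from the end.

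Most internal summits nevertheless lay far from the start. The median distance from the gene start was 5501 bp (quartiles 1500 and 10418 bp) and from the gene end 7973 bp. More than 5 kb from both ends there were 62 summits (19.8%). When the eligible part of each gene was divided into 10 equal segments, the first held 84 of the 313 summits (26.8%, 22.0 to 32.1%), the last held 42 (13.4%, 9.84 to 17.7%) and each of the third to the seventh held 18 to 20. In genes up to 10 kb the first segment held 13.0% and the last 12.1%, but segments there span fewer bases, so these shares are not compared further. Of the summits in long genes 55.6% (174 of 313, 49.9 to 61.2%) lay on the start side of the window's midpoint. This did not pass a two-sided exact binomial test against an even division (p = 0.0545, adjusted p = 0.145). In genes up to 10 kb the share was 55.02% (1392 of 2530), with an odds ratio of 1.02 between long and shorter genes (0.803 to 1.31; Fisher's exact test, adjusted p = 0.857).

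Median folds differed between groups of summits by distance. These groupings were formed after the values had been seen, so they are given without intervals or a test. Within 1000 bp of the start, 19 of 56 internal summits (33.9%) had a fold of at least 10, with a median of 6.66. Farther in, 110 of 257 (42.8%) did, with a median of 8.06. The highest median of the distance bins was 12.3, at 3 to 5 kb from the start, where 22 of 38 summits (57.9%) reached 10-fold. In the bins on either side, 2 to 3 kb and 5 to 10 kb, the median was 8.41, and 41.7% and 44.4% reached it. The background share at 10-fold was 47.2%. Beyond 10 kb the median was 7.71. Among internal summits, folds were low at 500 to 2000 bp from the gene end. There 8 of 42 (19.0%) reached 10-fold, with a median of 5.96. Elsewhere 121 of 271 (44.6%) did, with a median of 8.41. This does not extend to the end itself, since the 137 peaks of long genes within 500 bp of it had a median of 9.47. The stretches with the highest densities had median folds of 6.66, within 1000 bp of the start, and 5.61, at 500 to 1000 bp from the end, both below the median of all 313, 7.71.

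**Figure D3:**
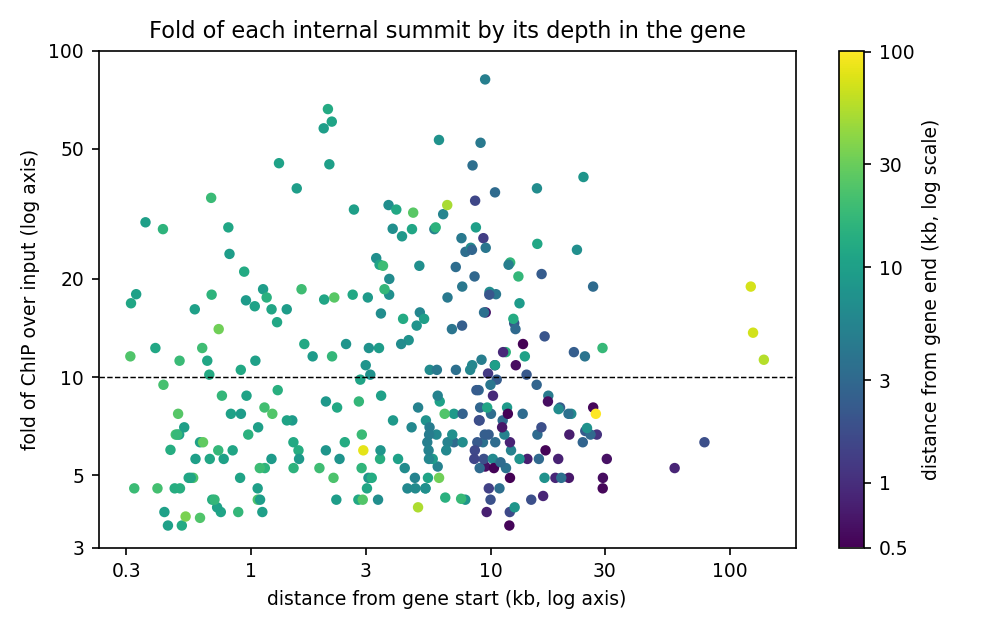
Fold of ChIP over input (log axis) of each of the 313 internal summits against its distance from the gene start in kb (log axis), coloured by distance from the gene end, with a dashed line at 10-fold. Folds above 40 occur from 1304 bp to 24408 bp from the start, and the points closest to the gene end (dark) lie mostly below the line.

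Among listed genes over 10 kb, the share with an internal summit lay between 20.6 and 25.1% in each class of length. The 253 genes had a median length of 14053 bp (quartiles 11532 and 19029 bp), and 60 were longer than 20 kb. Among listed genes of 10 to 12 kb, 83 of 341 held an internal summit (24.3%, 19.9 to 29.3%). The share was 25.1% at 12 to 15 kb (65 of 259), 21.3% at 15 to 20 kb (45 of 211), 22.5% at 20 to 40 kb (53 of 236) and 20.6% above 40 kb (7 of 34, 8.70 to 37.9%). The 95% intervals of these shares overlap. In genes of 5 to 10 kb the share was 24.8% (618 of 2496). The density per base was lower in longer genes. It was 3.24 summits per 100 kb of eligible sequence at 10 to 12 kb (2.67 to 3.899), 1.12 at 20 to 40 kb (0.862 to 1.42) and 0.453 above 40 kb (0.217 to 0.833). Genes are counted only if they have a listed peak, and an internal summit alone is enough. With similar shares of genes in each class, density falls with length unless longer genes hold more summits each. There were 112 summits in 83 genes at 10 to 12 kb, 65 in 53 at 20 to 40 kb and 10 in 7 above 40 kb.

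The longest gene with an internal summit was Zm00001d001010 on chromosome 2 (209197749 to 209392226, plus strand), 194477 bp by the annotation. It held 3, at 122081, 124783 and 138450 bp from its start, which were also the 3 farthest from a start in the whole set. Their folds were 18.9, 13.7 and 11.3, all above 10. The shortest gene, on chromosome 9 (42595858 to 42605898, plus strand, 10040 bp), held 2 summits with folds of 14.4 and 5.61. A gene just below the length limit, at 9998 bp on chromosome 2, held a summit with a fold of 4.91, 6712 bp from its start. At the start margin, the nearest summits inside and outside the limit were 312 and 296 bp from the start, with folds of 11.6 and 4.21. At the end margin they were 502 and 480 bp from the end, with folds of 4.91 and 3.86.

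Most genes held a single internal summit, and some held clusters. There were 209 genes with 1 internal summit (82.6%), 31 with 2, 12 with 3 and 1 with 6. In the 44 genes with at least 2, neighbouring summits were a median of 1666 bp apart (quartiles 1124 and 3912 bp, range 568 to 15391 bp). Of the 60 gaps, 12 were under 1 kb and 11 over 5 kb. Summits of the same gene differed in strength, with a median ratio of highest to lowest fold of 1.97 and a largest ratio of 8.44. In 10 of the 44 genes all internal summits reached 10-fold, in 11 none did, and in 23 only some did. The background share of single peaks at this fold was 47.2%, and these counts were not tested against it.

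The gene with 6 internal summits was Zm00001d019376 on chromosome 7 (30724557 to 30745574, plus strand, 21017 bp). Moving from its start, the summits lay at 1620, 2893, 5889, 6457, 9666 and 13195 bp. Their folds in that order were 18.6, 6.66, 28.7, 4.27, 8.06 and 5.61. The strong peaks, at 30725833 to 30726353 and 30730236 to 30730764, were each followed by a weaker one, and the last 7822 bp of the gene carried no further internal summit.

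Among genes with 3 internal summits, the highest fold was in a gene on chromosome 1 (257754937 to 257766730, plus strand). Its summits lay at 6603, 7546 and 8397 bp from the start, with folds of 6.31, 26.6 and 44.5, so this group of peaks stretched over only 1794 bp. An 18844-bp gene on chromosome 2 (59826668 to 59845512, minus strand) had its summits far apart. A summit with a fold of 35.4 lay 679 bp from its start, and others with folds of 6.66 and 13.3 lay 15672 and 16796 bp from it. A gene on chromosome 3 (181947006 to 181957835, minus strand) carried 3 summits of similar strength, with folds of 17.9, 15.8 and 14.0 at 3763, 5056 and 6885 bp from its start.

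**Figure D4:**
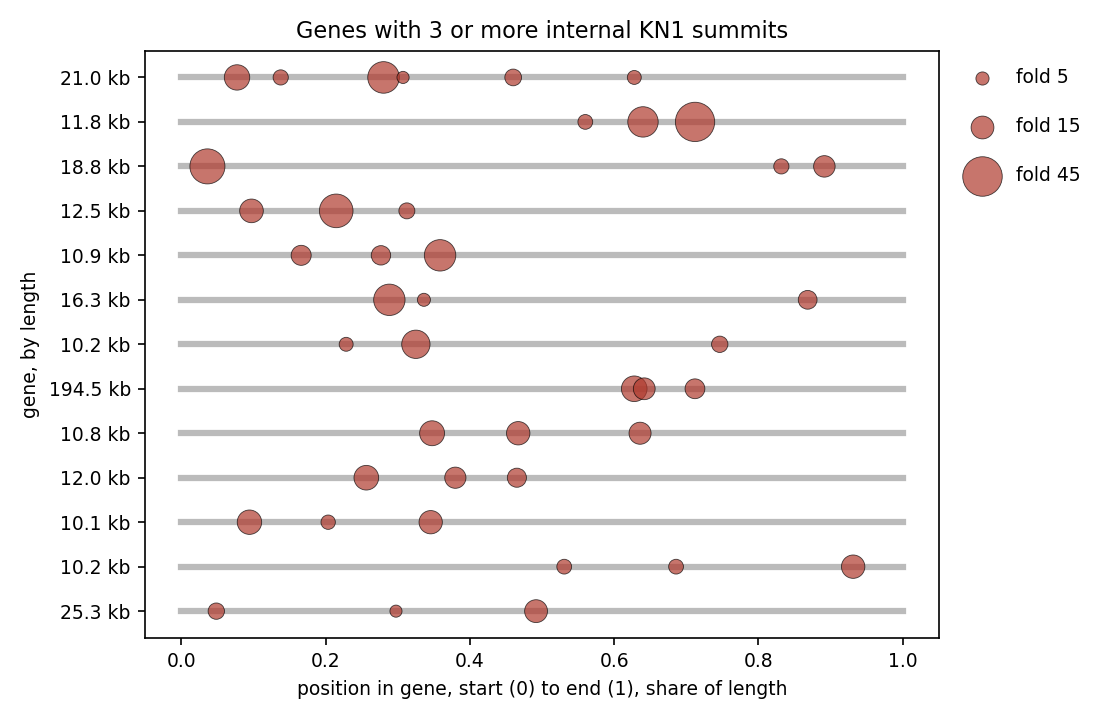
Positions of internal summits in the 13 genes with 3 or more, each drawn as a grey bar from gene start (0) to gene end (1) and labelled with its length in kb. The area of each circle is proportional to the fold of ChIP over input; the 21.0-kb gene at the top has 6 summits, and the 11.8-kb gene below it has its 3 summits within 1794 bp.

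Genes over 10 kb with an internal summit had a separate start summit less often than shorter genes with an internal summit. A start summit was present in 71 of 253 such long genes (28.1%, 22.6 to 34.0%) and in 841 of 2129 such genes up to 10 kb (39.5%, 37.4 to 41.6%). Of all 1081 listed genes over 10 kb, 596 had a start summit. An internal summit alone is enough to list a gene, so shares among genes with one are not shares of all listed genes. The count for all listed genes up to 10 kb is not given here. Between long and shorter genes with an internal summit, the odds ratio was 0.598 (95% interval 0.441 to 0.802). It passed a two-sided Fisher's exact test (p = 0.000363, adjusted p = 0.00291). The call was lost when the shorter genes were limited to 5 to 10 kb, of which 34.95% had a start summit (odds ratio 0.726; Fisher's exact test, adjusted p = 0.151), a limit set after the values had been seen. It was also lost among peaks with a q-value under 1e-10 (odds ratio 0.668; Fisher's exact test, adjusted p = 0.145).

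In 140 of the 253 long genes (55.3%, 49.0 to 61.6%) the internal summits were the only listed ones by the same peak filter. Besides the 71 with a start summit, 28 had a summit within 500 bp of the gene end, 24 had one more than 500 bp before the start and 21 had one more than 500 bp past the end. In the 71 genes with both kinds, the strongest internal summit exceeded the start summit in 37 genes and was lower in 34. The median fold was 10.5 for the strongest internal summit and 9.11 for the start summit of these genes. The internal fold was more than 2 times the start fold in 20 genes and the start fold was more than 2 times the internal fold in 14, with ratios of internal to start fold from 0.119 to 7.75. Both summits reached 10-fold in 17 of the 71 genes. Of all 20647 peaks with a single nuclear gene 47.2% reached this fold, and the joint count was not tested. Taking the highest of several internal summits favours the internal side where a gene has more than 1.

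**Figure D5:**
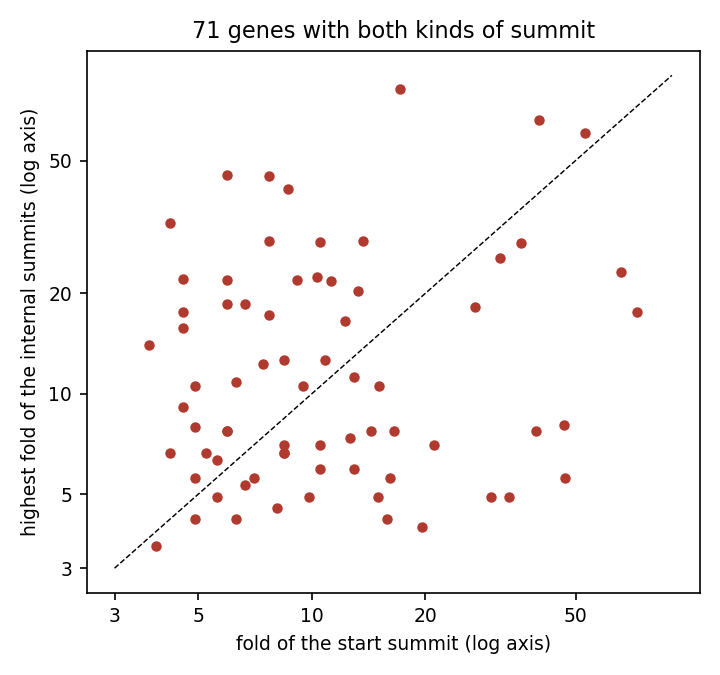
Highest fold among the internal summits (vertical log axis) against the highest fold among the start summits (horizontal log axis) for each of the 71 genes over 10 kb with both. Points above the dashed line of equal fold are the 37 genes whose internal summit is the stronger, and points below it the 34 genes whose start summit is the stronger.

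Within long genes as a class, internal summits made up 313 of 1469 peaks (21.3%, 19.2 to 23.5%). Start summits numbered 599 (40.8%), peaks within 500 bp of the end 137 (9.33%), peaks farther upstream 200 (13.6%) and peaks farther downstream 220 (14.98%). Median fold was 7.71 at internal summits, 8.06 at start summits and 9.47 at peaks within 500 bp of the end. It was 10.5 at the farther upstream peaks and 10.3 at the farther downstream ones. On each chromosome internal summits made up between 15.5% of the peaks of long genes, on chromosome 10 (15 of 97, 8.92 to 24.2%), and 29.8%, on chromosome 7 (45 of 151, 22.6 to 37.8%). The intervals of these 2 chromosomes overlap. Chromosome 1 also held 45 internal summits, but of 245 peaks.

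The position along the chromosome was compared between long and shorter genes. The extent of each chromosome was taken as the end of its last listed peak. In the middle of the chromosomes, the fourth to the sixth of 10 equal segments, lay 40 of 313 (12.8%, 9.29 to 17.0%) in genes over 10 kb and 303 of 2530 (11.98%, 10.7 to 13.3%) in shorter genes. The odds ratio was 1.08 (0.737 to 1.54) and did not pass Fisher's exact test (adjusted p = 0.857). Of all 1081 listed genes over 10 kb, 11.8% had their first listed peak in the middle segments.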

How the data were processed

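Leaf protoplasts of maize B73 overexpressing BLRP-tagged KN1 gave 1 ChIP and 1 input library. Tools named by the submitters' processing notes were Bowtie2 2.4.2, fastp 0.21.0, SAMtools 1.11 and MACS2, and settings are not given in the sources used here. Peak names carry the word "rmdup" and a genome size of 700 Mb. The deposited table lists each peak with its genes. Its fold is a linear ratio, ChIP to input, computed by the authors at each summit. Significance was deposited as −log10 of the p-value and of the q-value, and the summit offset, in bp, is a further deposited value in other units. Peaks were called on the single pair, with no pooling.

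Summits were converted to 1-based positions and placed by strand. Of 21168 chromosomal peaks, 475 listed with several genes were left out, as were those without a nuclear identifier. Pileup and input were solved from fold and p-value under the MACS2 formulas, a ratio with 1 added to both terms and a Poisson tail, with a relative error under 1e-05 for all peaks. The ChIP read number follows from the input floor of 1.85, the 700 Mb and the shortest peak, 229 bp, taken as fragment length. The placement of summits and the solution for pileup and input were tested on simulated data. Those data were made with the same formulas and margins, so this checks the code only. Shares have exact Clopper-Pearson and densities exact Poisson 95% intervals, which cover counting error only. The 8 tests (Fisher's exact or exact binomial, two-sided) were adjusted together with the Benjamini-Hochberg method at 0.05, using Python 3.11.15, pandas 2.3.3, scipy 1.17.1 and matplotlib 3.10.9. A gene's length is its end minus its start.

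The peak set and tests were chosen with earlier results of these data known. Peaks named are the 10 highest and 3 lowest folds, the 3 farthest from a start, those at the limits of the rule, and those of the genes with most summits (5 or more) or of greatest and least length. The 3 further genes described with 3 summits each were chosen after their values were seen. Alternatives were a q-value under 1e-10, whole peaks inside the margins, margins of 1000 bp, genes over 15 kb, 1 peak per gene, peaks of 400 to 600 bp, input at the floor, shorter genes of 5 to 10 kb, and start summits of peaks listed with several genes. No sequence is shown.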

Additional observations from a re-analysis of the deposited data

Results flagged for a closer look

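Peaks listed with several genes enter none of the comparisons, and some of them have a summit inside a gene over 10 kb by the same margins. There were 33 such peaks in 24 genes, with a median fold of 10.2 over input (range 4.56 to 79.2). They are given because the rule leaves them out. That they exceed input follows from the peak call, as it does for every listed peak. Which of their genes they belong to was not tested.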

How the results depend on the processing

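Each of the 8 tests and 2 counts was recomputed under those alternatives that apply to it, and 38 of 55 recomputed values kept their direction and their side of the threshold or stayed within 1.5 times the count. The lower share of start summits in long genes kept its direction throughout, with odds ratios from 0.504 to 0.726. It did not pass at a q-value under 1e-10 (0.668) or against genes of 5 to 10 kb (0.726), a limit chosen after seeing the data. Counting start summits of peaks listed with several genes, also chosen after seeing the data, gave 0.594 and kept the call. Input at the floor was tried for the fold against shorter genes only, and peaks of 400 to 600 bp for both fold tests. The odds ratio for fold against shorter genes fell below 1 in genes over 15 kb (0.797), with 1 peak per gene (0.985) and against genes of 5 to 10 kb (0.997). That against start summits did so in genes over 15 kb (0.873) and among peaks of 400 to 600 bp (0.816). For the start side of the window, the odds ratio fell below 1 at a q-value under 1e-10 (0.973), with whole peaks (0.868), with margins of 1000 bp (0.840), in genes over 15 kb (0.927) and against genes of 5 to 10 kb (0.841). For the chromosome middle it was 0.979 against genes of 5 to 10 kb, again chosen after seeing the data. None of these reversed values passed its test before or after, and their cause was not tested. The 313 summits in 253 genes became 199 in 167 at a q-value under 1e-10 and 128 in 105 above 15 kb, by construction. No paired analysis was possible because each group has 1 library. The weakest summits rest on 9 reads, and input below the floor of 1.85 cannot be seen.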
